A study of Mus musculus with 13 samples.

Results

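The genes described here encode the receptors for GABA, glycine and acetylcholine in excitatory neurons of the mouse claustrum, a thin sheet of cells between the insular cortex and the striatum. They were taken as every row of the deposited count tables whose symbol starts with Gabr or Gabbr, Glra followed by a digit, Glrb, Chrn followed by a letter from a to g, or Chrm followed by a digit. This gave 44 of the 23427 genes in the tables: 17 subunits of the GABA-A receptor, 2 of the GABA-B receptor, 5 of the glycine receptor, 15 of the nicotinic receptor and the 5 muscarinic receptors.

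The cells came from claustral microdissections of 4 mature male C57BL/6 mice and were picked by hand into 13 plates. In 1 mouse cells were sampled blindly, in slices where a retrograde virus (rAAV2-retro-CAG-GFP) injected into the anterior cingulate cortex marked the claustrum for dissection. In the other 3 mice, called projection mice 1 to 3, retrobeads had been injected into the lateral entorhinal cortex (LEC, green) and the retrosplenial cortex (RSC, red). Their cells are recorded as RSC-labeled, LEC-labeled or without a label. After filtering, the study counts 478 cells as blindly selected, which equals the number without a label over all 4 mice. A bead label shows that a cell took up beads from that target, and its absence does not show that the cell lacks the projection. The sample titles give the blindly sampled plates as from a WT mouse without projection and the other plates only as projection. The study's methods name no transgene in these mice, and mice that had surgery received carprofen, isoflurane and bupivacaine. The comparisons are between classes of cells of the same mice.

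Of 1112 harvested cells, 1011 had at least 1 count of Snap25, a gene of the synaptic release machinery that marks neurons, and of Slc17a7, the vesicular glutamate transporter VGLUT1 that marks excitatory cells. These were 238 cells of the blindly sampled mouse and 224, 220 and 329 of the projection mice, of which 247 were RSC-labeled, 286 LEC-labeled and 240 without a label. Cells of the blindly sampled mouse were shallower, with a median of 26023 counts each, than those of the projection mice, whose medians were 138535 to 154261.5. The RSC-labeled, LEC-labeled and unlabeled cells of a mouse lay on separate plates, except for 1 plate of projection mouse 3 with 34 RSC-labeled and 44 LEC-labeled cells, so label and plate cannot be told apart outside that plate.

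Cells were divided by Synpr, a marker of claustrum neurons whose product synaptoporin sits on synaptic vesicles: 438 Synpr-high cells had at least 200 CPM (counts of the gene scaled to the total of the cell or sum) and 573 Synpr-low cells had fewer. Few cells lay near this limit, with 13 at 100 to 200 CPM and 8 at 200 to 400 CPM, while 397 had no count of Synpr. The Synpr-low cells were further split by Slc30a3, the transporter that loads zinc into synaptic vesicles, into 343 Slc30a3-high cells (at least 50 CPM) and 230 Slc30a3-low cells. In the shallow cells of the blindly sampled mouse this limit is a matter of few counts. That mouse had 76 Slc30a3-high cells, and 79 and 72 at limits of 20 and 100 CPM. Synpr-high cells made up 86.2% of the RSC-labeled cells, 15.7% of the LEC-labeled cells, 27.9% of the unlabeled cells of the projection mice and 47.5% of the cells of the blindly sampled mouse. Counts were summed per mouse within each class, and levels are CPM of such a sum, normalized between sums, unless plain CPM is stated. Every list of values is in the order blindly sampled mouse, then projection mice 1, 2 and 3, or only the last 3 where labels are compared. The smallest sum in any of the comparisons had 1705691 counts and the largest 27601436.

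Marker genes separated the Synpr classes. The study drew Gfra1, Slc30a3, Nnat and Spon1 from these same cells as putative subtype markers, and the lists were chosen with earlier results known. Their separation is therefore no independent support for the classes. The other 5 core-like markers besides Synpr (Gnb4, Lxn, Gfra1, Slc17a6 and Nr4a2) were higher in Synpr-high cells, all 6 shell-like markers (Slc30a3, Nnat, Spon1, Ntm, Syn2 and Ldb2) were lower, and 5 of 8 layer 6-like markers were lower. Between the Slc30a3 classes, 4 of the 8 layer 6-like markers were lower in Slc30a3-high cells, among them Ctgf, Foxp2 and Sla. Of the 6 shell-like markers only Slc30a3, which defines these classes, was higher in Slc30a3-high cells, and Nnat was at 907 and 1256 normalized CPM there against 1116 and 1387 in Slc30a3-low cells in projection mice 2 and 3. Of the inhibitory neuron markers, Gad1 and Gad2, which make GABA, reached at most 21.4 and 16.5 normalized CPM in a sum of either Synpr class. They reached 48.7 and 57.8 in the Slc30a3-low sum of projection mouse 3, against 0.0501 each in its Slc30a3-high sum, and 20 of the 1011 cells had a count of either gene. Pvalb, Lhx6 and Slc32a1 reached at most 6.91 in a sum of either Synpr class. The other list members were not all low. Sst was at 71.1 and 98.3 in the Synpr-high sums of projection mice 1 and 3, and Npy reached 1040.1 in the Synpr-low sum of projection mouse 3.

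GABA-A receptors are chloride channels of 5 subunits, most often alpha and beta subunits with a gamma or a delta subunit, and carry fast inhibition. The alpha subunit sets much of their pharmacology and placement: receptors with alpha2 are mostly synaptic, while those with alpha5 or with alpha4 and delta are mostly outside synapses and carry tonic current. GABA-B receptors are dimers of Gabbr1 and Gabbr2 products that act through G proteins. Glycine receptors are also chloride channels, nicotinic receptors are cation channels opened by acetylcholine, and muscarinic receptors act through G proteins.

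Of the 44 genes, 25 had enough counts to be tested in each comparison. The 19 others had 0 to 75 counts in all 1011 cells, were found in 0 to 26 cells, and never passed 2.74 normalized CPM in a sum. They comprised the rho, epsilon and theta GABA-A subunits, Glra1 and Glra4, Chrm5, and 11 nicotinic subunits including Chrna3 and Chrnb4, the chromosomal neighbors of Chrna5. At this depth, only 4 nicotinic subunits were therefore measured well enough to compare: Chrna4, Chrna5, Chrna7 and Chrnb2. Genes found in most cells included Gabbr1, with counts in 95.7% of cells, Glrb (92.9%), Gabbr2 (91.2%), Chrm1 (89.6%) and the GABA-A subunit Gabrb2 (83.6%). These shares depend on depth as well as on expression, and reads come from transcript 3′ ends without a correction that would let levels of different genes be compared.

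The first question was whether receptor genes differ between Synpr-high and Synpr-low cells of the same mice. Of the 25 tested genes, Gabra5 and Gabrb1 were lower in Synpr-high cells, Chrna5 was higher, and 22 did not pass the threshold. These 3 calls are 12% of the tested receptor genes, against 8.82% of all 13641 genes tested, of which 4.48% were higher and 4.34% lower. The median log2 fold change of the 25 genes and that of all genes tested both rounded to 0.00.

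**Figure D1:**
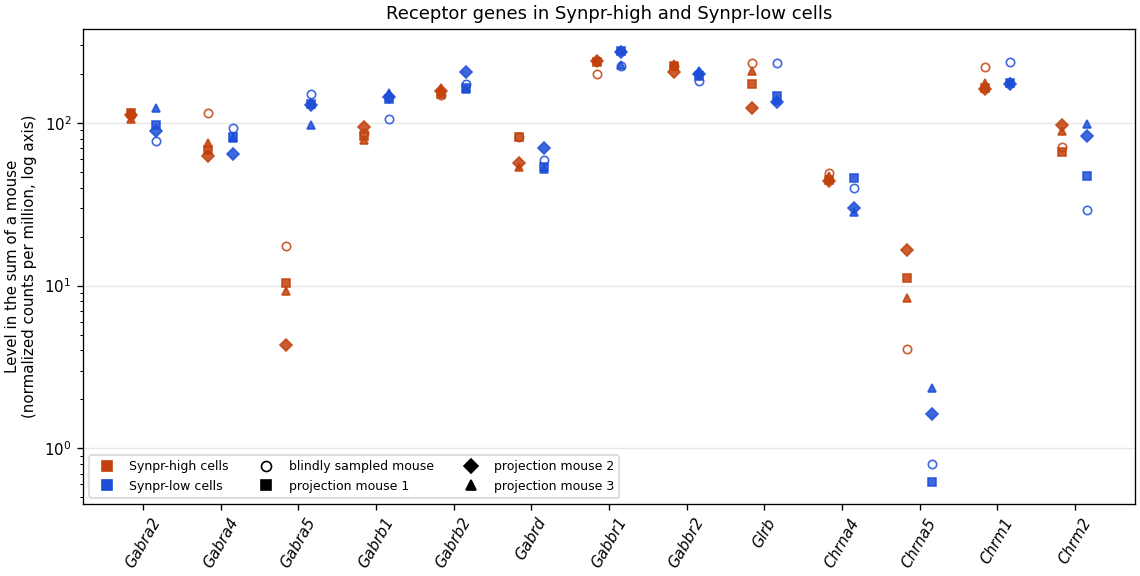
Levels of the 13 receptor genes described one by one, in sums of Synpr-high (orange) and Synpr-low (blue) cells; each point is the sum of 1 mouse and the vertical axis is logarithmic. Gabra5 and Chrna5 stand apart, with Gabra5 at 4.31 to 17.5 normalized CPM in Synpr-high cells and 97.1 to 150.1 in Synpr-low cells.

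Gabra5 encodes the alpha5 subunit, found mainly in extrasynaptic receptors of hippocampal and deep cortical pyramidal cells. Its level was 17.5, 10.4, 4.31 and 9.22 normalized CPM in Synpr-high cells and 150.1, 130.2, 128 and 97.1 in Synpr-low cells. The groups did not overlap, and the highest Synpr-high value was that of the blindly sampled mouse. The difference was -3.66 on the log2 scale (SE 0.36, adjusted p = 2.3e-04, edgeR), 12.6-fold lower in Synpr-high cells, and lower in 4 of 4 mice. It held in each of the 18 alternative settings tried, with the largest adjusted p at 0.00596. It was lower in Synpr-high cells on 12 of the 12 plates with at least 5 cells of both classes.

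The same contrast was seen cell by cell. With each cell thinned to 20000 counts, 39 of 406 Synpr-high cells (9.61%, exact 95% interval 6.92 to 12.9) had a count of Gabra5, against 330 of 521 Synpr-low cells (63.3%, 59.0 to 67.5). Without thinning the shares were 19.4% and 73.8%. The counts were spread over many cells, and the cell with most held 1.57% of the Synpr-low counts of this gene and 6.29% of the Synpr-high counts. Intervals cover counting error only.

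The 250 bases before the RefSeq start of Gabra5 are shown because this gene had the largest fall. They lie at chr7:57510060-57510309 (- strand, build GRCm38.p6, while the submitters' processing notes name NCBIM37), have 56.4% G and C, and hold 2 matches to the E-box, in capitals, and none to the GC box.

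Gabra5: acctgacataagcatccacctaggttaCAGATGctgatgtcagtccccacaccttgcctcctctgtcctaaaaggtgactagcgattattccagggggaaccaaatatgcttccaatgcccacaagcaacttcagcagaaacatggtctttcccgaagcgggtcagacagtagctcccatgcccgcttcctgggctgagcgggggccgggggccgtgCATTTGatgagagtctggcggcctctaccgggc

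The motifs searched on both strands were the E-box CANNTG, held by 66.2% of 32851 RefSeq start windows of the same length, the GC box GGGCGG (32.7%), the TATA box TATAAA (12.4%), the cAMP response element TGACGTCA (1.55%) and AAAGGTCA, the NBRE bound by receptors of the Nr4a family (1.34%). None of the 39 start windows found for 34 of the receptor genes held the last of these. A match is a run of letters and not a measured binding site.

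Gabrb1, which encodes the beta1 subunit, was lower in Synpr-high cells by a smaller amount. Its level was 86.0, 82.5, 94.8 and 78.6 normalized CPM in Synpr-high cells and 106, 140.3, 143 and 152 in Synpr-low cells. The groups did not overlap, and the blindly sampled mouse was the lowest of the Synpr-low values. The difference was -0.66 on the log2 scale (SE 0.14, adjusted p = 0.0132, edgeR), 1.58-fold lower and lower in 4 of 4 mice, and it was seen on 11 of 12 plates. The call was lost without projection mouse 1, 2 or 3 (adjusted p = 0.107, 0.0711 and 0.144) and with unlabeled cells only (0.0872). Gabrb1 and its neighbor Gabra4 overlap on opposite strands, and it is not stated whether counting used strand. Gabra4 itself was at 115, 67.7, 62.7 and 75.0 normalized CPM in Synpr-high cells and 93.0, 82.0, 64.5 and 80.2 in Synpr-low cells, with no net difference (log2 fold change 0.00, SE 0.20).

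Gabra2, Gabrb2 and Gabrd, which encode the alpha2, beta2 and delta subunits, showed no difference that passed the threshold. Gabra2 was at 112, 115, 111 and 106 normalized CPM in Synpr-high cells and 77.6, 97.5, 88.9 and 123 in Synpr-low cells (log2 fold change 0.20, SE 0.15), so that projection mouse 3 went against the others. Gabrb2 was at 147, 150.2, 157 and 164 against 173, 165, 207 and 161 (-0.19, SE 0.11), the groups overlapping through projection mouse 3. Gabrd, the delta subunit of extrasynaptic receptors, was at 81.3, 81.8, 56.3 and 53.5 against 58.7, 53.2, 69.6 and 52.2 (0.22, SE 0.18). For each of these 3 genes the groups overlapped and at least 1 mouse went against the others.

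Both GABA-B subunits and the glycine beta subunit were at similar levels in the Synpr classes. Gabbr1 was at 199, 236, 241 and 238 normalized CPM in Synpr-high cells and 225, 278, 272 and 228 in Synpr-low cells (log2 fold change -0.13, SE 0.11). Gabbr2 was higher in Synpr-high cells in 4 of 4 mice, at 224, 223, 204 and 231 against 179.6, 193, 199 and 209, but the difference of 0.18 (SE 0.10) did not pass the threshold (adjusted p = 0.361). Glrb, which tethers glycine receptors to the scaffold gephyrin, was at 234, 174, 123 and 207 against 232, 147, 134 and 139, so that mice differed more than classes did (0.18, SE 0.23).

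Chrna5 encodes the alpha5 nicotinic subunit, an accessory subunit that joins alpha4 and beta2 in high-affinity receptors and is known from layer 6 of the cortex. Its level was 4.05, 11.1, 16.5 and 8.35 normalized CPM in Synpr-high cells and 0.797, 0.620, 1.63 and 2.35 in Synpr-low cells. The groups did not overlap, and the blindly sampled mouse had the lowest Synpr-high value. The difference was 2.84 on the log2 scale (SE 0.57, adjusted p = 0.0113, edgeR), 7.16-fold higher and higher in 4 of 4 mice, and 10 of 12 plates had the same direction.

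Few cells carried this signal. Chrna5 had 652 counts in 46 of 438 Synpr-high cells and 116 counts in 14 of 573 Synpr-low cells, and 5 cells held 37.3% and 81.9% of these counts. In cells thinned to 20000 counts the shares were 5.17% (exact 95% interval 3.23 to 7.80) and 1.34% (0.542 to 2.75), and the gene was then too low for the test. These intervals pool cells of all mice and cover counting error only. In single mice the shares were 3.53% to 8.24% and 0.769% to 1.69%. The call was also lost without projection mouse 1 or 2 (adjusted p = 0.0785 and 0.0877), with unlabeled cells only (0.211), and against Slc30a3-high cells alone (log2 fold change 2.63, adjusted p = 0.0918). It held with the mouse as a block (0.00654). The window before the first of 2 RefSeq starts of Chrna5 is shown beside that of Gabra5 because the genes differed in opposite directions. It lies at chr9:54980630-54980879 (+ strand, build GRCm38.p6), has 40.0% G and C, and holds 1 E-box, in capitals, and none of the other motifs. The window before the second start, at chr9:54981238-54981487, overlaps an exon of Chrna5 and is not printed. That window has 65.2% G and C and holds 4 GC boxes and 2 E-boxes. Which start these cells use was not tested.

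Chrna5: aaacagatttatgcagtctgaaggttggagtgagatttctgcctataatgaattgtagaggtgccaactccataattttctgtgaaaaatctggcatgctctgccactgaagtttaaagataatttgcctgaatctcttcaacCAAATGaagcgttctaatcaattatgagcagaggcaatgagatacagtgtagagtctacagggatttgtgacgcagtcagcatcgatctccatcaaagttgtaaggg

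The other nicotinic subunits did not pass the threshold between the Synpr classes. Chrna4 encodes the alpha4 subunit of the main high-affinity receptor of the brain. It was at 49.2, 44.7, 43.6 and 46.9 normalized CPM in Synpr-high cells and 39.6, 45.9, 30.0 and 28.5 in Synpr-low cells, a difference of 0.36 on the log2 scale (SE 0.18, adjusted p = 0.307). Its direction was opposite in unlabeled cells alone (-0.10). The Synpr-high sums lay within a narrow range, and the Synpr-low sums did not, which the split of these cells by Slc30a3 takes up further on.

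Of the muscarinic receptors, Chrm1, the Gq-coupled M1 receptor of pyramidal cells, was at 221, 165, 162 and 175 normalized CPM in Synpr-high cells and 238, 176, 173 and 178 in Synpr-low cells. It was lower in 4 of 4 mice, but the log2 difference was only -0.08 (SE 0.15, adjusted p = 0.871). Chrm2, the Gi-coupled M2 receptor, was at 71.4, 65.9, 97.2 and 89.5 against 29.0, 46.9, 83.5 and 98.9 (0.32, SE 0.33, adjusted p = 0.709), and its lowest Synpr-low value was that of the blindly sampled mouse. Neither Chrm3 nor Chrm4 passed the threshold.

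**Figure D2:**
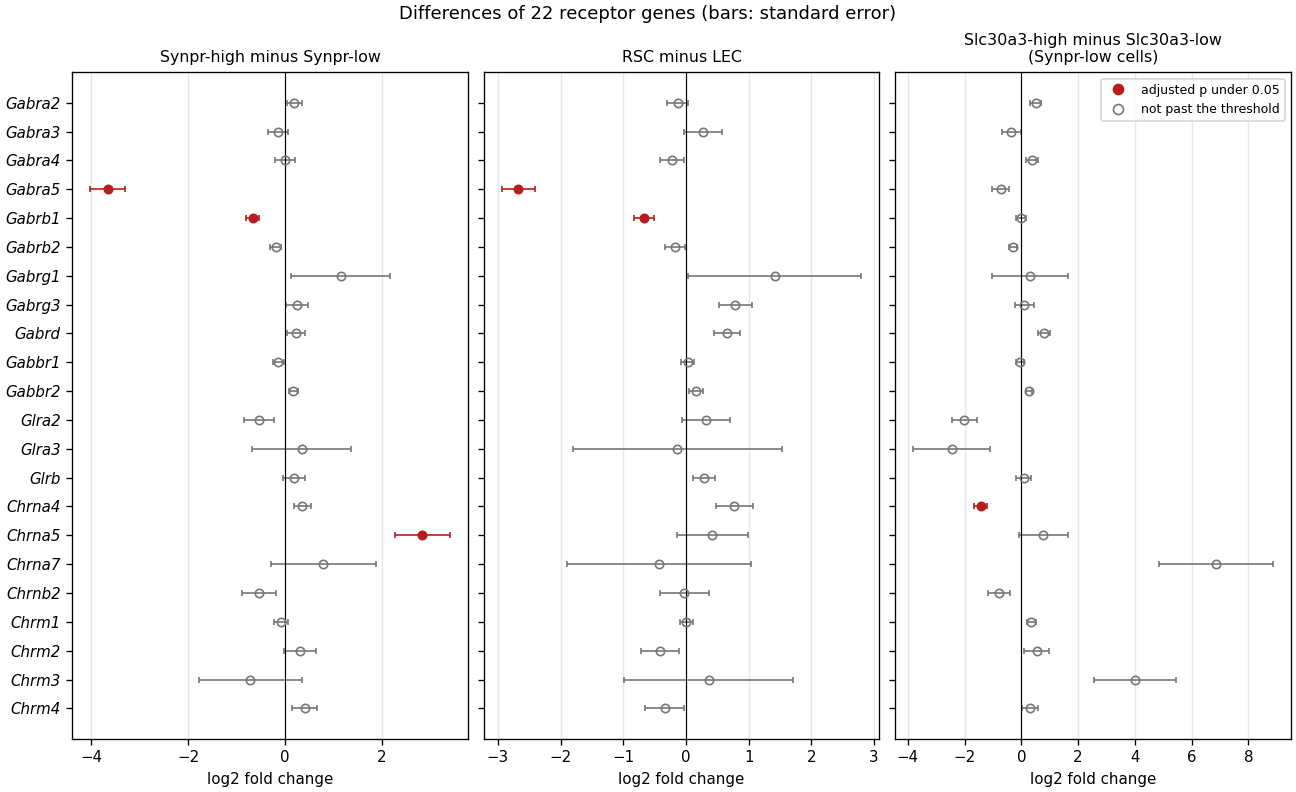
Log2 fold changes of 22 tested receptor genes in 3 comparisons, with standard errors as bars; filled red points passed an adjusted p of 0.05 and open gray points did not. Gabra5 and Gabrb1 lie below 0 in the Synpr and in the projection comparison, Chrna5 lies above 0 in the first and Chrna4 below 0 in the third; the value of Chrna7 in the third rests on a class with 0 counts in all mice.

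The second question was whether receptor genes differ by projection target. Gabra5 and Gabrb1 were lower in RSC-labeled than in LEC-labeled cells, and no other receptor gene passed the threshold. The 2 calls are 8% of the 25 tested genes, against 3.95% of 13976 genes tested, of which 1.89% were higher and 2.06% lower. This comparison shares its cells with the previous one, since most RSC-labeled cells were Synpr-high and most LEC-labeled cells Synpr-low.

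Gabra5 was at 18.0, 13.7 and 15.7 normalized CPM in RSC-labeled cells and 92.4, 124 and 87.5 in LEC-labeled cells. Unlabeled cells of the same mice were at 119.5, 84.9 and 59.2, so that the RSC-labeled sums were the 3 lowest. The difference between the labels was -2.67 on the log2 scale (SE 0.26, adjusted p = 8.1e-04, edgeR), 6.38-fold lower in RSC-labeled cells and lower in 3 of 3 mice. It was -3.03 (adjusted p = 0.00294) without the plate that held both labels, and within that plate plain CPM was 29.5 in 34 RSC-labeled cells and 65.5 in 44 LEC-labeled cells. Inhibitory marker genes did not all move the same way between the labels. Of the 5 tested, 1 passed the threshold, Sst. It was at 101, 6.78 and 139.7 normalized CPM in RSC-labeled cells and 0 in all LEC-labeled sums. Npy, of the same list, was lower in RSC-labeled cells in 3 of 3 mice. Its level was 577.47, 12.975 and 523.92 normalized CPM there and 606.24, 474.18 and 1028.8 in LEC-labeled cells. The marker list as a whole summed to 19.9 to 726 normalized CPM in RSC-labeled cells and 474 to 1029 in LEC-labeled cells, with Gad1, Gad2 and Sst at 0 in the latter. Without cells that had a count of Gad1 or Gad2 the difference of Gabra5 was -2.63 (adjusted p = 9.2e-04).

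Gabrb1 was at 94.2, 87.8 and 89.8 normalized CPM in RSC-labeled cells and 117, 163 and 154 in LEC-labeled cells, with unlabeled cells at 138, 118 and 102. The difference was -0.67 on the log2 scale (SE 0.16, adjusted p = 0.0402, edgeR), 1.60-fold lower and lower in 3 of 3 mice. This call was lost in a fit that kept each mouse as a block, where the adjusted p was 0.0699, and when projection mouse 2 or 3 was left out (0.328 and 0.314).

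Within a Synpr class, no receptor gene passed the threshold between the labels in edgeR, with 0 of 23 tested at an unadjusted p under 0.05 in Synpr-high cells and 5 of 22 in Synpr-low cells, against 4.69% and 12.5% of all genes tested. Among Synpr-high cells Gabra5 was at 8.78, 5.56 and 10.98 plain CPM in RSC-labeled cells and 19.1, 0.454 and 0.878 in LEC-labeled cells, and the sums of the latter rest on 18, 11 and 16 cells. The log2 difference was 0.27 (SE 1.13), opposite in sign to that of all cells. Among Synpr-low cells Gabra5 was at 81.5, 43.1 and 92.2 plain CPM in the 12, 14 and 8 RSC-labeled cells and 126, 152 and 105 in LEC-labeled cells (-0.80, SE 0.31, adjusted p = 0.321). In this class the RSC-labeled value was the lower in 3 of 3 mice, though by less than in all cells. Of all genes tested, 0 of 11831 passed within Synpr-high cells in edgeR, with 555 at an unadjusted p under 0.05, and 1 of 12724 (1593 unadjusted) within Synpr-low cells.

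**Figure D3:**
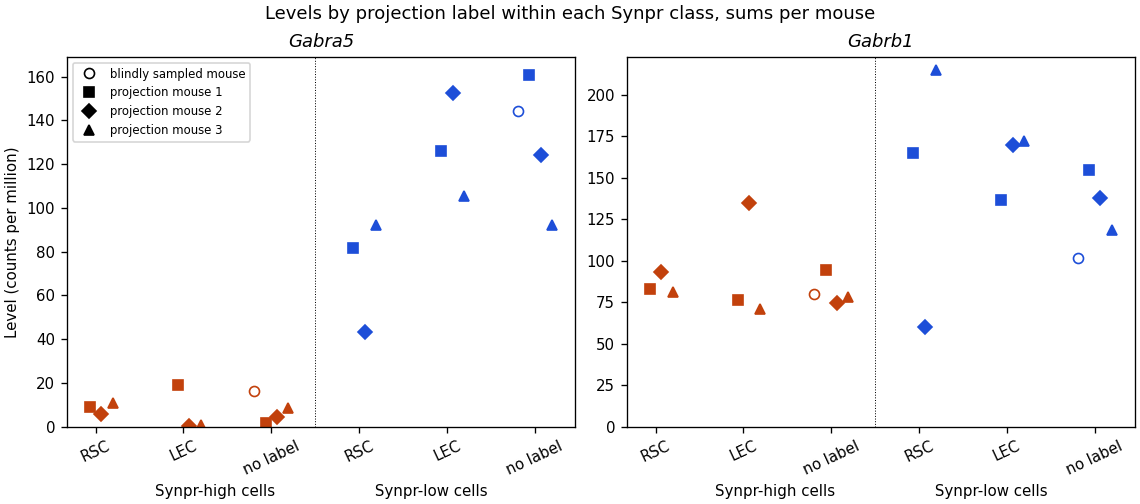
Levels of Gabra5 and Gabrb1 in plain CPM by projection label within Synpr-high (orange) and Synpr-low (blue) cells; each point is the sum of 1 mouse. Every Synpr-high value of Gabra5 is at most 19.1 and every Synpr-low value at least 43.1, whichever label the cells had, while the classes overlap for Gabrb1.

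Several genes differed between the labels without passing the threshold in edgeR. How many of all genes had no overlap between the labels is not given here. Gabrd was at 87.5, 78.4 and 65.8 normalized CPM in RSC-labeled cells and 56.5, 43.7 and 46.5 in LEC-labeled cells, groups that did not overlap (log2 fold change 0.66, SE 0.21, adjusted p = 0.116, and 0.0380 in DESeq2). Chrna4 was at 42.3, 46.7 and 44.6 against 39.4, 14.9 and 23.9, again without overlap (0.77, SE 0.29, adjusted p = 0.203, and 0.0469 in limma on mean CPM). Chrna5, in contrast with its difference between the Synpr classes, was at 4.47, 5.62 and 10.3 in RSC-labeled and 6.75, 6.01 and 2.51 in LEC-labeled cells (0.42, SE 0.56, adjusted p = 0.811).

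The remaining genes described one by one overlapped between the labels or differed little. Gabra2 was at 118, 92.4 and 102 normalized CPM in RSC-labeled cells and 97.4, 116 and 129 in LEC-labeled cells, and Gabra4 was at 65.2, 63.0 and 79.4 against 77.5, 80.2 and 85.3. Gabrb2 had a log2 fold change of -0.17 (SE 0.16). For Gabbr1 and Gabbr2 the changes were 0.03 (SE 0.10) and 0.16 (SE 0.11), for Glrb 0.29 (SE 0.18), for Chrm1 0.00 (SE 0.10) and for Chrm2 -0.41 (SE 0.31). The M2 receptor gene was at 71.0, 79.3 and 74.2 in RSC-labeled cells and averaged 99.4 ± 37.9 (SD, n = 3) in LEC-labeled cells, so projection mouse 1 went the other way.

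The third question was how receptor genes differ inside the Synpr-low cells, between those above and below the limit of Slc30a3. Chrna4 was lower in Slc30a3-high than in Slc30a3-low cells, and the other 24 tested genes did not pass the threshold. This 1 call is 4% of the genes tested, against 0.617% of 13121 genes, of which 0.213% were higher and 0.404% lower. At an unadjusted p under 0.05 there were 8 of the 25, against 9.37% of all genes, and DESeq2 called 3 (Chrna4, Gabrd and Glra2), against 2.16% of all genes.

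Chrna4 was at 13.7, 32.4, 22.2 and 18.3 normalized CPM in Slc30a3-high cells and 72.8, 60.7, 48.9 and 54.2 in Slc30a3-low cells. Synpr-high cells, fitted with them, were at 49.5, 45.0, 43.8 and 47.2. The Slc30a3-high sums were the lowest of the 3 classes in every mouse. The difference between the Slc30a3 classes was -1.43 on the log2 scale (SE 0.24, adjusted p = 0.0114, edgeR), 2.69-fold lower and lower in 4 of 4 mice. Synpr-high cells were 2.12-fold higher than Slc30a3-high cells (log2 fold change 1.08, SE 0.23, adjusted p = 0.0106), and their difference from Slc30a3-low cells was -0.35 (SE 0.23, adjusted p = 0.477). Layer 6-like markers (8 genes) moved with the classes and summed to 320 to 550 normalized CPM in Slc30a3-high cells and 997 to 2960 in Slc30a3-low cells. Pcp4 alone gave 445, 491, 329 and 288 of the former sums and 2496, 775, 808 and 660 of the latter. Ctgf, of the same list, reached at most 0.472 in Slc30a3-high cells and was at 7.85 to 187 in Slc30a3-low cells. Oligodendrocyte markers (4 genes) summed to 68.0 to 1012 and 27.9 to 69.2, and the part of either list in the result was not tested. In thinned cells a count of Chrna4 was found in 36.9% of Synpr-high, 17.1% of Slc30a3-high and 39.8% of Slc30a3-low cells. The call between the Slc30a3 classes was lost without the blindly sampled mouse (adjusted p = 0.0608) and without projection mouse 2 or 3 (0.143 and 0.147), with log2 fold changes of -1.17 to -1.68 when any 1 mouse was left out. Without the cells that had a count of Gad1 or Gad2 the difference was -1.45 (adjusted p = 0.0137).

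Gabra5 did not pass the threshold between the Slc30a3 classes but was ordered across the 3 classes in every mouse. It was at 100.2, 117, 101 and 87.4 normalized CPM in Slc30a3-high cells and 214, 147, 193 and 123 in Slc30a3-low cells, which did not overlap (log2 fold change -0.73, SE 0.30, adjusted p = 0.434). Synpr-high cells were lower than both for this gene, with log2 differences of -3.34 against Slc30a3-high cells (SE 0.33, adjusted p = 3.2e-05) and -4.07 against Slc30a3-low cells (SE 0.34, adjusted p = 7.1e-06). Gabrb1 was at 99.2, 138, 137 and 165 in Slc30a3-high and 115, 146, 164 and 119.6 in Slc30a3-low cells (-0.01, SE 0.17). Synpr-high cells were lower than either class for this gene too (-0.65 and -0.66, adjusted p = 0.0303 and 0.0240). Of all genes, 7.03% passed between Synpr-high and Slc30a3-high cells and 8.86% between Synpr-high and Slc30a3-low cells.

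Glra2, the alpha2 glycine subunit typical of immature neurons, was below the level set for a description of its own and is named because of its values here. It was at 4.72, 22.2, 10.1 and 10.1 normalized CPM in Slc30a3-high cells and 29.7, 36.5, 93.8 and 32.7 in Slc30a3-low cells, lower in 4 of 4 mice and without overlap. The difference was -2.00 on the log2 scale (SE 0.45) with an adjusted p of 0.0701 in edgeR, and 0.0216 with the mouse as a block. It was 6.8e-04 in DESeq2, 0.0222 in limma on mean CPM and 0.0444 with no filter on low counts. Over the settings tried the adjusted p reached 0.503, without projection mouse 2, whose Slc30a3-low cells had the highest level. In those cells taken over all mice, the single cell with most counts held 13.4% of the counts of this gene.

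**Figure D4:**
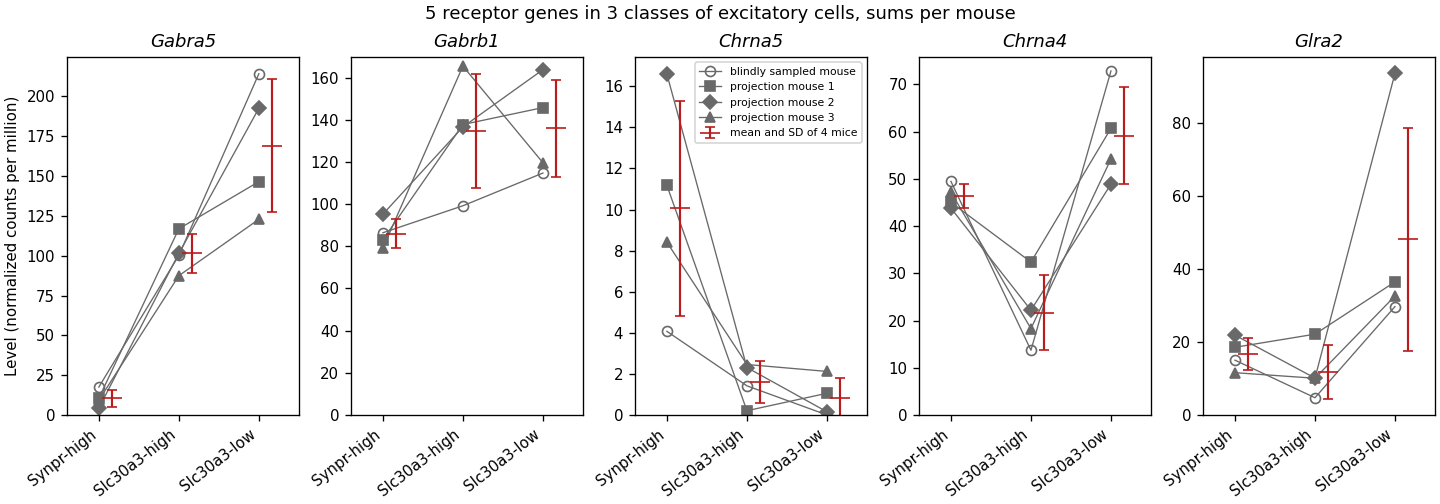
Levels of 5 receptor genes in Synpr-high, Slc30a3-high and Slc30a3-low cells in normalized CPM; points joined by a line are the sums of 1 mouse and red bars give the mean and SD of 4 mice. Gabra5 is at 10.4 ± 5.45 in Synpr-high cells, 101 ± 12.1 in Slc30a3-high cells and 169 ± 41.8 in Slc30a3-low cells, and Chrna4 is lowest in Slc30a3-high cells (21.6 ± 7.95).

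Gabrd had the next clearest separation. It was at 81.3, 64.1, 79.2 and 58.0 normalized CPM in Slc30a3-high cells and 29.7, 43.2, 50.3 and 38.6 in Slc30a3-low cells, higher in 4 of 4 mice and without overlap (log2 fold change 0.79, SE 0.21, adjusted p = 0.137, and 0.0381 in DESeq2). Synpr-high cells were higher than Slc30a3-low cells for this gene (0.75, SE 0.21, adjusted p = 0.0394), whereas their difference from Slc30a3-high cells was -0.04 (SE 0.21).

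Other genes moved in 1 direction in every mouse without passing. Gabra2, Gabra4, Gabbr2, Chrm1 and Chrm2 were higher in Slc30a3-high cells in 4 of 4 mice, with log2 fold changes of 0.51 (SE 0.18), 0.37 (SE 0.21), 0.28 (SE 0.11), 0.35 (SE 0.17) and 0.54 (SE 0.45). Gabrb2 was lower in 4 of 4 mice, with a change of -0.28 (SE 0.14). Some of these gaps were small. Chrm1 was at 178 against 177 normalized CPM in projection mouse 1, and Gabrb2 at 171 against 175 in the blindly sampled mouse. How many of all genes had 1 direction in every mouse is not given here. Gabbr1 and Glrb had mice in both directions. Chrm2 in Slc30a3-low cells varied between mice, at 9.71, 34.9, 79.9 and 78.5 normalized CPM. Chrna5 was near the limit of detection in both Slc30a3 classes, with 88 counts in 10 of 343 Slc30a3-high cells and 28 counts in 4 of 230 Slc30a3-low cells.

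Genes that act with these receptors were examined as 5 lists, described by counts. Of the 13 tested genes for inhibitory synapse scaffold and receptor assembly, Mdga1, whose product blocks neuroligin 2, was higher in Synpr-high cells (log2 fold change 4.17, SE 0.65, adjusted p = 0.00294). The other 12, among them Gphn, which encodes gephyrin, did not pass, and the median of the list was 0.10. Of 8 tested genes of chloride and GABA or glycine transport and metabolism, Abat, which encodes GABA transaminase, was lower (-1.37, SE 0.36, adjusted p = 0.0407). Over all genes tested, 4.48% were higher in Synpr-high cells and 4.34% lower. Of the 21 genes of both lists, none passed in edgeR in the projection comparison or between the Slc30a3 classes, with 3 at an unadjusted p under 0.05 in each, against 16.4% and 9.37% of all genes, and DESeq2 called 2 and 1, against 8.16% and 2.16%.

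Of 5 tested genes of GABA-B auxiliary subunits and effector channels, Kctd16, which encodes an auxiliary subunit, was higher in Synpr-high cells (2.35, SE 0.51, adjusted p = 0.0167) and in RSC-labeled cells (4.41, SE 0.65, adjusted p = 0.00437). In RSC-labeled cells Kctd16 was at 8.17, 4.90 and 8.18 normalized CPM. The LEC-labeled sums held only 2, 5 and 9 counts of it (0.136, 0.406 and 0.427 normalized CPM), so this change rests on a class near 0. Of all genes tested, 4.48% were higher in Synpr-high cells and 1.89% in RSC-labeled cells. The GABA-B subunits themselves did not pass in either comparison.

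Of 9 tested genes of cholinergic receptor assembly, modulation and breakdown, Lypd6 (3.01, SE 0.36, adjusted p = 6.4e-04) and Lypd6b (2.55, SE 0.36, adjusted p = 0.00168) were higher in Synpr-high cells. Both encode membrane-anchored proteins of the Ly6 family, members of which bind nicotinic receptors. Lypd6b was also higher in RSC-labeled cells (1.76, SE 0.31, adjusted p = 0.0105). Between the Slc30a3 classes Lypd1, of the same family, was lower in Slc30a3-high cells (-3.36, SE 0.62, adjusted p = 0.0233). Tmem35, which encodes a chaperone of nicotinic receptors, was higher there (1.05, SE 0.22, adjusted p = 0.0471). Over all genes tested, 4.48% were higher in Synpr-high cells and 1.89% in RSC-labeled cells. In Slc30a3-high cells 0.213% were higher and 0.404% lower than in Slc30a3-low cells.

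Of 10 tested genes of muscarinic coupling, 3 were higher in Synpr-high cells and none was lower. Gnao1, the alpha subunit of Go, was higher by 1.55 on the log2 scale (SE 0.08, adjusted p = 3.1e-06), Plcb1, a phospholipase C, by 0.85 (SE 0.11, adjusted p = 8.5e-04) and Gnai1 by 0.54 (SE 0.11, adjusted p = 0.0126). Gnao1 (0.99, SE 0.09, adjusted p = 6.2e-04) and Plcb1 (0.88, SE 0.11, adjusted p = 0.00183) were also higher in RSC-labeled cells. Kcnq5, a subunit of the M-current potassium channel, was higher in Slc30a3-high cells (1.27, SE 0.26, adjusted p = 0.0377). These shares compare with 4.48% of all genes higher in Synpr-high cells, 1.89% higher in RSC-labeled cells and 0.213% higher in Slc30a3-high cells.

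Markers of other cell types varied between sums. Oligodendrocyte markers (4 genes) summed to 27.4 to 327 normalized CPM in Synpr-high cells and 50.5 to 539 in Synpr-low cells, astrocyte markers (4 genes) to 15.1 to 34.7 and 23.6 to 75.5, and microglia markers (4 genes) to at most 8.16. The inhibitory list of 7 genes summed to 1.25 to 505 and 127 to 1072, of which Npy alone gave up to 1040.1, and Slc5a7, a marker of cholinergic neurons, reached at most 0.0814. Of 8 tested markers of other cell types, none passed in edgeR or DESeq2 between the Synpr classes, with 3 at an unadjusted p under 0.05 (20.3% of all genes), or between the Slc30a3 classes, with 4 (9.37%). Without the cells that had a count of Gad1 or Gad2, Gabra5 differed by -3.69 between the Synpr classes, Gabrb1 by -0.67 and Chrna5 by 2.86. The part of the other lists in the results was not tested.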

How the data were processed

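Cells of 4 mice on 13 plates were used. What the authors deposited are raw counts of every gene in every cell, in separate tables for the mouse sampled blindly and for those with beads, beside tables of each cell's mouse and label. The study's methods tag reads to barcodes of single molecules (UMIs). Whether the deposited counts are molecules or reads was not checked, so several counts in a cell may come from fewer molecules. Per the labels and the study's methods, cells were picked by hand, transcripts were primed at their 3′ ends with barcoded oligonucleotides, and reads were aligned with STAR; the submitters' processing notes name the build NCBIM37 and Seurat. The version of STAR, the annotation and the use of strand are not given in the sources used here. Counts of a gene that overlaps another on the opposite strand are therefore uncertain (Gabra5 and Gm9962, Gabrb1 and Gabra4, Chrm1 and Gm22820, Chrm2 and 9330158H04Rik, Chrnb2 and Adar, by GENCODE M21). A gene listed in only 1 table was set to 0 in the other, which concerned 11 of the 44 receptor genes.

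Spike-ins were left out. Cells with no count of Snap25 (27) or, further, of Slc17a7 (74) were removed, 101 in all. The tables share no cell name; 343 of 368 well barcodes were used on more than 1 plate. No doublet caller was run on these hand-picked cells. Classes were cut at 200 CPM of Synpr and 50 CPM of Slc30a3, and a sum needed at least 5 cells.

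Sums per mouse and class were tested in edgeR 4.0.16 (R 4.3.3) with its quasi-likelihood F test, after TMM scaling and its default filter on low counts, and p-values were adjusted by Benjamini-Hochberg over all genes tested, with a threshold of 0.05. The Synpr comparison used 8 sums, the projection comparison 9 including unlabeled cells, and the Slc30a3 comparison 12 including Synpr-high cells. Sums range from 1705691 to 27601436 counts, and the number of mice, 3 or 4, limits the precision. The replicates are the mice. How many of all genes had 1 direction in every mouse, or no overlap between groups, is not given here. Such statements therefore only describe the gene named. Alternatives were DESeq2 1.42.0, limma 3.58.1 on mean CPM with a pseudocount of 1, RLE factors, other filters and limits, thinning to 20000 counts per cell (927 cells kept), the mouse as a block, and leaving out each mouse. The tests were tried on simulated data first. Intervals of shares are exact (Clopper-Pearson, 95%). They pool the cells of all mice and do not measure the spread between mice.

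The sums of a number come from the same mouse, so they are paired by design. Deviations of such paired sums from group means had a median correlation of 0.232 in the Synpr comparison (4 pairs, 0.204 to 0.631), 0.0449 in the projection comparison (9 pairs, -0.0342 to 0.103) and 0.185 in the Slc30a3 comparison (12 pairs). Between sums of different mice and classes the medians were -0.113, -0.0274 and -0.0814.

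A receptor gene was described with its values if it passed the threshold in any comparison or had a mean of at least 50 normalized CPM in any class, which gave 16 genes, of which 3 are not reported here; lists of other genes are given by counts, with up to 3 examples per direction. The receptor genes and the lists were chosen with earlier results of these data known. Start windows come from RefSeq (GRCm38.p6), with 34 of the 44 genes matched.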

Additional observations from a re-analysis of the deposited data

Results flagged for a closer look

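In groups of 4 mice, 5 of 52 sets of values had 1 mouse far from the other 3, by a test of its distance that flags about 1 in 20 groups by chance. In all 5 it was the blindly sampled mouse, which was also the shallowest, with a median of 26023 counts per cell. Chrm1 was at 238 normalized CPM in its Synpr-low cells, against 173 to 178 in the others, and at 289.6 in its Slc30a3-high cells, against 178 to 193. Glrb was at 232 in its Synpr-low cells, against 134 to 147, and at 227 in its Slc30a3-high cells, against 137 to 149.7. Gabbr1 was at 199 in its Synpr-high cells, against 236 to 241. None of these genes passed the threshold in edgeR in any of the 3 comparisons. The Slc30a3-high cells are part of the Synpr-low cells, so the flags of Chrm1 are not independent of each other, nor are those of Glrb. The blindly sampled mouse also differed in its tracer, a virus in place of beads. The methods place 3 plates in a separate sequencing run without naming them. The part of depth, tracer and run was not tested.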

How the results depend on the processing

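Between the Synpr classes 3 receptor genes were called, 1 to 3 without any 1 mouse, 1 with unlabeled cells only, and 5 against Slc30a3-low cells alone, where Gabrd (adjusted p = 0.0394) and Glra2 (0.0477) were added. Against Slc30a3-high cells alone there were also 3, with Chrna4 in and Chrna5 out. Between the labels 2 were called, 1 to 2 without any 1 mouse, 3 in DESeq2 (Gabrd added), 3 in limma (Chrna4 added), 1 with the mouse as a block, and 0 within Synpr-high or within Synpr-low cells. Between the Slc30a3 classes, where 1 was called, there were 0 to 1 without any 1 mouse, 3 in DESeq2, and 2 with no filter, with the mouse as a block and in limma. Signs turned for Gabra5 between the labels within Synpr-high cells (0.27), for Chrna4 between the Synpr classes with unlabeled cells only (-0.10) and against Slc30a3-low cells (-0.35), for Gabrd with unlabeled cells only (-0.15) and against Slc30a3-high cells (-0.042), and for Glra2 against Slc30a3-high cells (0.48). The cause was not tested. Described receptor genes never called changed sign in 10 of 144, 10 of 135 and 8 of 164 values in the 3 comparisons.

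Over all genes, 1203 were called between the Synpr classes, 1995 with the mouse as a block, 601 with unlabeled cells only and 545 to 1581 without any 1 mouse. Between the labels 552 were called, 1140 in DESeq2, 854 in limma, 59 to 391 without any 1 mouse, and 0 and 1 within Synpr-high and Synpr-low cells. Between the Slc30a3 classes 81 were called, 284 in DESeq2, 226 with the block, 125 in limma and 6 to 57 without any 1 mouse. The block took the call of Gabrb1 between the labels, gave one to Glra2 between the Slc30a3 classes, and changed no other call of a receptor gene. Settings on Slc30a3-high or Slc30a3-low cells alone and on the plate with both labels were added after the data had been seen.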

Other observations

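The 74 cells with Snap25 but no count of Slc17a7 were in no comparison. They had 684.5 plain CPM of Gad1 and 836 of Gad2 in 5 and 4 cells, against 9.36 and 7.55 in the 1011 kept cells. Among receptor genes, Gabra5 was at 35.0 plain CPM in these cells and 68.9 in the kept cells, Chrna4 at 7.68 and 40.1, Gabrd at 12.8 and 61.6, and Gabra2 at 178 and 108. These values rest on few counts: 41 of Gabra5 in 8 of the 74 cells, 9 of Chrna4 in 4, 15 of Gabrd in 8 and 208 of Gabra2 in 13. Chrna5 had 0 counts in the 74 cells and was at only 5.80 plain CPM in the kept cells. Differences between removed and kept cells were not tested.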
